A study of Mus musculus with 4 samples.

Results

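A set of 9 genes of antigen presentation and interferon signaling was followed in lenses of S100A4-/- mice and of wild type (WT) mice. The genes were chosen by name, and all 9 were found among the 14924 genes of the expression table. B2m, H2-K1, H2-D1, Tap1 and Tapbp belong to class I antigen presentation and Cd74 to class II presentation, while Irf1 and Irf9 are transcription factors of the interferon response and Ifit1 is a target of it. RNA was measured by stranded, single-end mRNA sequencing in 2 libraries of S100A4-/- lenses and 2 libraries of WT littermate lenses. Each library came from 6 to 12 pooled lenses of mice about 1 month old on a C57BL/6J background. Both sexes were used in the study, and the labels do not give the sexes within a pool. The null allele is carried by all cells of the S100A4-/- mouse and not by the lens alone, and the spread between libraries is a spread between pools. The libraries held 81602367 and 74108017 reads on genes in S100A4-/- and 70253985 and 68038158 in WT. S100a4, the targeted gene, stood at 14.6 and 18.2 normalized reads in S100A4-/- against 14420 and 14385 in the WT libraries, so each library matched its label. The lens crystallin gene Cryaa had values from 11948842 to 13333352. None of the 22 lens markers examined passed the limma test between genotypes or was called at 2-fold with DESeq2 or edgeR. Of these 22, 3 had an unadjusted p under 0.05 (limma), as did 17.7% of all genes tested.

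A class I molecule is a heavy chain, such as the product of H2-K1 or H2-D1, bound to beta-2 microglobulin (B2m), and it shows peptides of the cell's own proteins to cytotoxic T cells. The peptides are pumped into the endoplasmic reticulum by the Tap1 and Tap2 transporter, and tapasin (Tapbp) holds the empty class I molecule next to that pump. Class II molecules show peptides from material the cell has taken up, are made mainly by macrophages, dendritic cells and B cells, and are guided through the cell by the invariant chain Cd74. Type I interferon acts through a complex with Stat2 and Irf9, which binds the interferon-stimulated response element (ISRE). Interferon gamma acts through the gamma-activated site (GAS) and switches on Irf1. The mature lens has no blood vessels of its own.

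Letters of these response elements stand in front of several of the 9 genes, and the stretches that hold them are shown to place each gene in the pathway. RefSeq promoter windows on GRCm38, from 250 bases before to 50 bases after a transcription start, were searched on both strands for the ISRE core (GAAA, any 2 bases, then GAAA), the GAS core TTCNNNGAA and the kappaB sequence shown in capitals in the H2-K1 stretch, which do not overlap each other in the stretches shown. A window was found for 8 of the 9 genes. The ISRE core was found before B2m and, in 2 copies, before Ifit1, the GAS core before Irf1, and the kappaB sequence before H2-K1 and H2-D1. Of the non-members searched, Ifit3, a relative of Ifit1, held 2 ISRE cores and Ctss 1 before the start, and Ifitm3 held 2 after the start, with a GAS core that overlaps the second. Around the kappaB sequence H2-K1 and H2-D1 were identical at 50 of 51 bases, and for H2-D1 the sequence lies before the RefSeq start but within the longer GENCODE gene, so that only the stretch of H2-K1 is shown. Of all 32851 windows, 3.44% held the ISRE core, 8.3% the GAS core and 0.0304% the kappaB sequence. The kappaB sequence fixes every letter, while the cores allow any base at some places, so these shares cannot be compared. Its letters are those of the H2-K1 stretch, so its match in H2-K1 was given. The match in the nearly identical H2-D1 stretch is not a separate result. The ISRE core, the GAS core and the kappaB sequence were not found in the windows of Tap1, Tapbp and Irf9. Only exact matches were sought, so an element that departs from these letters is missed. The lack of an exact ISRE core, as before H2-K1 and H2-D1, does not show that no such element is present. A match is a run of letters and not a measured binding site. The stretches lie before the start site and are written 5′ to 3′, with the matched letters in capitals, which for Ifit1 and Ifit3 are the ISRE core read on the opposite strand.
B2m (chr2:122147528-122147577, plus strand): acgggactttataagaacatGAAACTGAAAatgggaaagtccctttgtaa
Ifit1 (chr19:34640765-34640833, plus strand): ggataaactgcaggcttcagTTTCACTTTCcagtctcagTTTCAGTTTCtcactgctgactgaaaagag
Ifit3 (chr19:34583353-34583436, plus strand): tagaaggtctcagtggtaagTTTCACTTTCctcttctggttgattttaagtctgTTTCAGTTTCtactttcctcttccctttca
Irf1 (chr11:53769904-53769952, plus strand): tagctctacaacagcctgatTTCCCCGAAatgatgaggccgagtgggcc
H2-K1 (chr17:34000428-34000478, minus strand): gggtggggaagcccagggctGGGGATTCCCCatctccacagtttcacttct

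The 9 genes were compared between genotypes to see whether lenses without S100A4 differed in these immune pathways. Cd74 rose to 3.13-fold of its WT level, and the other 8 genes did not pass the test, with folds between 0.894 (Tap1) and 1.28 (B2m). The deposited value of a gene is its read number over the size factor of that library, so that 1 read is worth between 0.856 and 1.09. Differences were tested with limma on the log2(value + 1) scale, with Benjamini-Hochberg adjustment over the 14780 genes that reached a value of 10 in any library, the 9 genes included, and p-values called adjusted are adjusted in this way. A gene passed the test at an adjusted p of at most 0.05, as 6.96% of all genes tested did, and 5.62% were higher and 1.33% lower in S100A4-/- lenses. With a change of at least 2-fold required as well, 3.72% of all genes tested were called, 3.65% higher and 0.0744% lower. Of the 9 genes 1 passed (11.1%), with or without the fold threshold, and a single gene of 9 is near the background. The median log2 fold change was 0.15 over the 9 genes and -0.005 over all genes tested. The added 1 shrinks the fold change of genes with few reads, and as a difference of mean logs a fold change can lie above or below the ratio of the mean values.

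**Figure D1:**
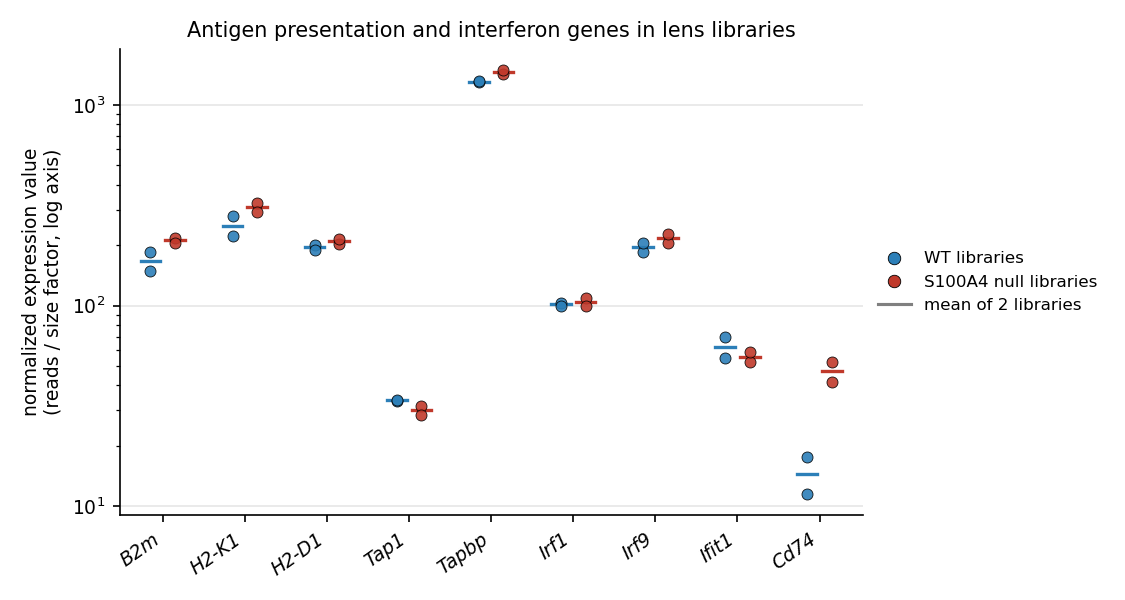
Normalized expression value (reads divided by the size factor, log axis) of the 9 genes in each library, with WT in blue, S100A4-/- in red and a bar at the mean of the 2 libraries of a group. The groups lie close together for 8 genes, while for Cd74 the S100A4-/- libraries at 52.2 and 41.6 lie above the WT libraries at 11.5 and 17.5.

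B2m (ENSMUSG00000060802, chr2:122147686-122153083 of GRCm38), the light chain of class I molecules, had values of 218 and 205 in S100A4-/- and 148 and 184 in WT libraries. Both S100A4-/- libraries lay above both WT libraries, by 20.8 at the nearest, while the WT libraries lay 35.7 apart. The difference of 0.35 ± 0.15 (SE) on the log2 scale did not pass (limma, adjusted p = 0.199). H2-K1 (ENSMUSG00000061232, chr17:33996017-34000347), a class I heavy chain, had values of 326 and 293 in S100A4-/- and 279 and 221 in WT libraries. The S100A4-/- libraries were again the higher ones, and the first WT library stood closer to them than to the second WT library. H2-K1 differed by 0.31 ± 0.13 (SE) on the log2 scale and did not pass either (limma, adjusted p = 0.171). Without the first WT library it passed the test, with 0.48 on the log2 scale (limma, adjusted p = 0.0344), a fit in which the lone WT library is assumed to vary like the S100A4-/- libraries.

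H2-D1 (ENSMUSG00000073411, chr17:35262730-35267499), another class I heavy chain, was at 204 and 216 in S100A4-/- and 200.5 and 189 in WT libraries. The groups did not overlap, but the nearest libraries of the groups were 3.33 apart, less than the spread within either group. With 0.11 ± 0.14 (SE) on the log2 scale, H2-D1 did not pass (limma, adjusted p = 0.775). The levels of both heavy chains are uncertain, because the class I genes resemble each other and the authors counted reads of a single genomic locus. Of the stretches of 50 bases, the read length, in their GENCODE M21 transcripts, 9.63% for H2-K1 and 12.8% for H2-D1 also occurred in transcripts of other genes. For B2m and Cd74 this share was 0%.

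Tapbp (ENSMUSG00000024308, chr17:33915899-33929292), which encodes tapasin, had the highest values of the 9 genes, at 1422 and 1487 in S100A4-/- and 1299 and 1311 in WT libraries. Both S100A4-/- libraries lay above both WT libraries, by more than the distance between the libraries of either group. The log2 difference was small, 0.16 ± 0.07 (SE), and did not pass (limma, adjusted p = 0.19). Of its 50-base stretches 23.2% also occurred in transcripts of other gene models. Tap1 (ENSMUSG00000037321, chr17:34187553-34197225), a subunit of the peptide pump, had values of 31.7 and 28.4 in S100A4-/- and 33.4 and 33.9 in WT libraries, from 28 to 37 reads. It was the member whose S100A4-/- libraries both lay below the WT libraries. Limma gave it a log2 difference of -0.16 ± 0.36 (SE) and an adjusted p of 0.874. Tapbp, Tap1, H2-K1 and H2-D1 lie in the major histocompatibility complex on chromosome 17.

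The transcription factors of the set overlapped between genotypes. Irf1 (ENSMUSG00000018899, chr11:53770014-53778374), which switches on class I genes after interferon gamma, had values of 109 and 99.3 in S100A4-/- and 103 and 99.6 in WT libraries. Irf9 (ENSMUSG00000002325, chr14:55603571-55610030), the DNA-binding partner of Stat2, was at 206 and 227 in S100A4-/- and 185 and 206 in WT libraries. On the log2 scale Irf1 differed by 0.03 ± 0.20 (SE) and Irf9 by 0.15 ± 0.14 (SE), with limma adjusted p-values of 0.955 and 0.663. The sign of Irf1 turned under quantile normalization, to -0.10, and without the first S100A4-/- library, to -0.031. Ifit1 (ENSMUSG00000034459, chr19:34640871-34650009), an antiviral protein that binds foreign RNA, had values of 52.2 and 58.8 in S100A4-/- and 69.96 and 54.7 in WT libraries. Its groups overlapped as well, and it differed by -0.16 ± 0.27 (SE) on the log2 scale (limma, adjusted p = 0.83). Without the first WT library, the highest of the 4 for this gene, the log2 fold change of Ifit1 was 0.017.

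The precision of the comparison can be read from the limma intervals, which are not adjusted for the number of genes. For each of the 8 genes that did not pass, the 95% interval lay within a 2-fold change in either direction. The interval of the log2 fold change reached from 0.04 to 0.66 for B2m, from 0.05 to 0.58 for H2-K1 and from 0.02 to 0.29 for Tapbp. Among these 8 genes it was widest for Tap1, from -0.88 to 0.56, and Ifit1, from -0.70 to 0.38, which had the fewest reads of the 8. The S100A4-/- libraries lay above the WT libraries without overlap in 5 of the 9 genes and below them in 1, and over all genes tested these shares were 23.7% and 23.2%, or 46.9% in either direction.

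**Figure D2:**
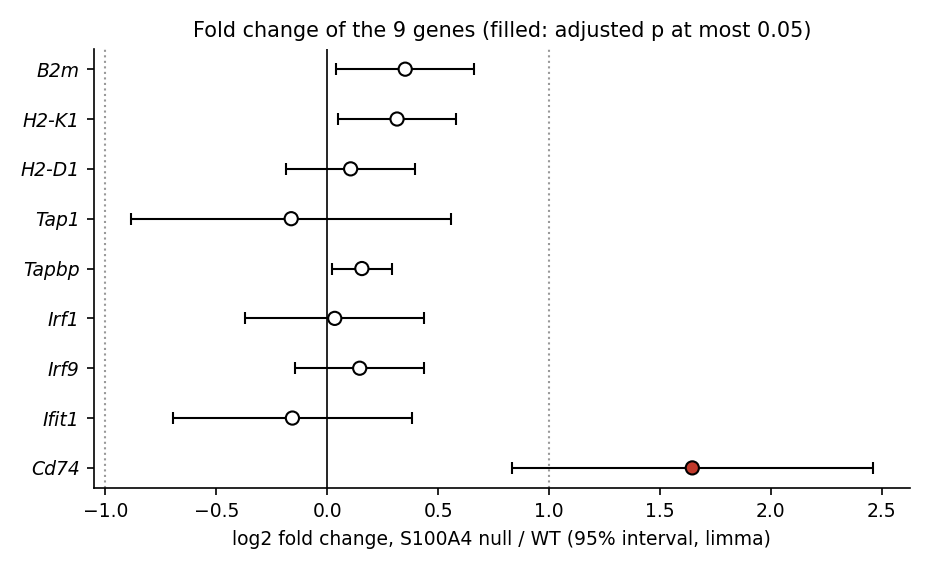
Log2 fold change of S100A4-/- over WT for the 9 genes (points) with its 95% interval from limma (bars), and dotted lines at a 2-fold change. The filled point, Cd74 at 1.65, passed the test, and the intervals of the other 8 genes lie between the dotted lines.

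Per kilobase of exon, the order of the 9 genes in WT lenses was led by Tapbp at 360 ± 2.27 (SD, n = 2) normalized reads per kilobase and B2m at 193 ± 29.3 (SD, n = 2). H2-K1 at 85.1 ± 13.9 (SD, n = 2) and H2-D1 at 75.6 ± 3.03 (SD, n = 2) followed and did not differ beyond their spread. Below them stood Irf9 at 36.3 ± 2.76 (SD, n = 2), Irf1 at 25.5 ± 0.664 (SD, n = 2) and Ifit1 at 23.5 ± 4.05 (SD, n = 2), of which Irf1 and Ifit1 did not differ beyond their spread. Cd74 at 8.64 ± 2.54 (SD, n = 2) and Tap1 at 6.15 ± 0.0683 (SD, n = 2) were the lowest and lay within the spread of Cd74 of each other. In S100A4-/- lenses Cd74 was at 27.9 ± 4.5 (SD, n = 2) per kilobase and did not differ beyond its spread from Irf1 at 26.2 ± 1.68 (SD, n = 2), and the order of the other 8 genes was the same as in WT lenses.

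Cd74 (ENSMUSG00000024610, chr18:60803848-60812652), the invariant chain of class II molecules, was counted with 61 and 41 reads in the S100A4-/- libraries against 11 and 16 in the WT libraries. These were normalized values of 52.2 and 41.6 against 11.5 and 17.5, so both S100A4-/- libraries stood well above both WT libraries. The rise came to 1.65 ± 0.40 (SE) on the log2 scale, with a 95% interval from 0.83 to 2.46 (limma, adjusted p = 0.00532). It was also called by the count tests on the recovered reads, by DESeq2 (adjusted p = 0.0435), which called 2.89% of all genes tested, and by edgeR (adjusted p = 0.00519), which called 3.82%. It did not pass with limma when its variance was not allowed to follow expression (adjusted p = 0.133). Leaving out the first S100A4-/- library gave a limma adjusted p = 0.252, and leaving out the second gave 0.14, at log2 fold changes of 1.48 and 1.81.

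Of the other genes of class II presentation, 16 were listed, 11 could be analysed and 1 passed the test (9.09%), against 6.96% of all genes tested. A single gene of 11 is near that background. Ctss, the protease that trims Cd74 inside the cell, rose from values of 14.6 and 10.9 in WT to 50.5 and 37.5 in S100A4-/- libraries. Ctss rose by 1.70 ± 0.42 (SE) on the log2 scale (limma, adjusted p = 0.0055), and like Cd74 it did not pass without the first (adjusted p = 0.255) or the second S100A4-/- library (limma adjusted p = 0.118) or without the variance trend (limma adjusted p = 0.104). The class II chain genes were low, apart from H2-Eb1. The S100A4-/- libraries held 10 and 24 reads of H2-Aa and the WT libraries 3 and 1 (limma, adjusted p = 0.0811). H2-Aa, like H2-Ab1, reached the value of 10 needed for testing only in S100A4-/- libraries, and its call without the first WT library (limma, log2 fold change 2.89, adjusted p = 0.0379) is subject to that filter. H2-Ab1 had 15 and 9 reads against 2 and 6 (limma, adjusted p = 0.414). H2-Eb1 was at 419 and 450 in S100A4-/- and 452 and 493 in WT libraries, or -0.12 on the log2 scale (limma, adjusted p = 0.594). Per kilobase of exon H2-Eb1 was at 243 in WT lenses, against 0.557 for H2-Aa and 1.69 for H2-Ab1. The proteases and reductase of the pathway that other cells also use, Lgmn and Ifi30, had log2 fold changes of -0.02 and 0.21 and did not pass. The median over the 11 genes was 0.12.

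Macrophages and microglia are cells that make Cd74 and Ctss, and some of their markers rose with these genes. Of 21 markers listed, 17 could be analysed and 4 passed (23.5%), all upward, while 5.62% of all genes tested passed upward. Of the 17, 7 reached the value of 10 needed for testing only in S100A4-/- libraries, so that their direction was largely set by that filter, and none of these 7 passed. Csf1r, the receptor for the macrophage growth factor, was at 93.3 and 69.9 in S100A4-/- and 33.4 and 35.04 in WT libraries, 1.22 higher on the log2 scale (limma, adjusted p = 0.00297). The complement genes C1qa, C1qb and C1qc passed as well, with log2 fold changes of 1.51, 2.63 and 1.30, and none of these 3 passed with DESeq2. None of the 4 passed with limma without the first S100A4-/- library (Csf1r adjusted p = 0.257, C1qb adjusted p = 0.23), without the second (0.0862 and 0.322) or without the variance trend (0.116 and 0.443). C1qa and C1qc did not pass under quantile normalization (limma adjusted p = 0.0774 and 0.164), and C1qc did not pass without the second WT library (limma adjusted p = 0.138). Cd163, the scavenger receptor for hemoglobin, was the most abundant gene of the list and overlapped between genotypes, at 107 and 85.1 in S100A4-/- and 90.8 and 98.5 in WT libraries. The summed value of the 17 markers was 597 and 536 in S100A4-/- and 279 and 270.4 in WT libraries, a ratio of 2.06. This sum includes the 7 markers that reached the value needed for testing only in S100A4-/- libraries, and no sum without them was made. Ly86 had no read in the first WT library, and the other 16 markers had reads in all libraries. The markers Ptprc, Aif1, Tmem119 and Spi1 were not analysed here. The part of such cells in the rise of Cd74 and Ctss was not tested, and in RNA of whole lenses more cells of a type and more RNA per cell cannot be told apart.

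**Figure D3:**
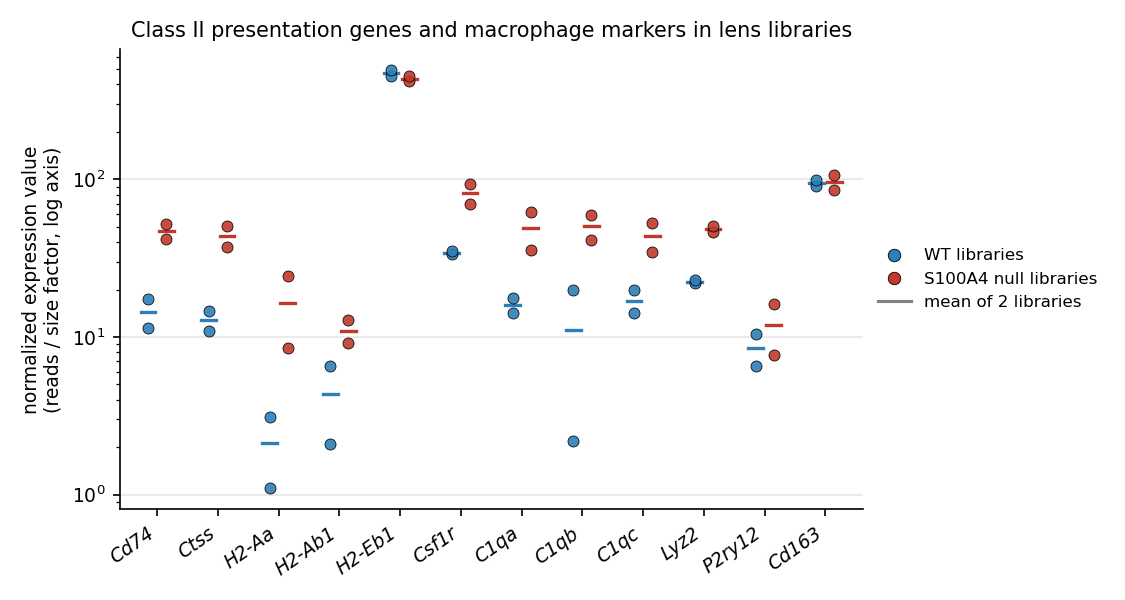
Normalized expression value (log axis) in each library of class II presentation genes (Cd74 to H2-Eb1) and of macrophage markers (Csf1r to Cd163), with WT in blue, S100A4-/- in red and bars at the means. The genes shown are a selection from both lists. In this selection the S100A4-/- points lie above the WT points except for H2-Eb1, where they lie below, and P2ry12 and Cd163, where the groups overlap. H2-Aa and H2-Ab1 reached the value needed for testing only in S100A4-/- libraries. Of the class II genes not shown, H2-DMb1 lay below WT, H2-DMa and Ifi30 lay above, and Lgmn, Rfx5, Rfxap and Rfxank overlapped.

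Other immune cells could hardly be followed. Of the markers of dendritic cells 2 of 8 were analysed and of lymphocytes 2 of 16. None of these 4 passed with limma, DESeq2 or edgeR. None had an unadjusted p under 0.05 (limma) either, against 17.7% of all genes tested. The most abundant of them were Zbtb46, at 121 and 101 in S100A4-/- and 137 and 129 in WT libraries, and Nkg7, at 104 and 93.2 against 80.4 and 97.4. Of the markers of blood vessel endothelium 9 were tested and 2 rose, Flt1, from 61.6 and 71.2 to 241 and 239, and Kdr, from 9.40 and 9.85 to 74.5 and 60.8. Kdr was 1 of 2 endothelial markers that reached the value needed for testing only in S100A4-/- libraries, as did 1 marker of pigment cells. The summed values of the 10 endothelial markers analysed were 519.8 and 500.7 in S100A4-/- and 193 and 241 in WT libraries, with none at 0. Kdr and the other endothelial marker that reached the value needed for testing only in S100A4-/- libraries are part of these sums. Markers of rods rose together, with all 13 past the test and a median log2 fold change of 1.92, and Gnat1, the rod transducin gene, was the most abundant. Of the markers of Müller glia 6 of 10 rose, Apoe among them, and Dkk3, the most abundant, was at 78434 and 80316 against 77855 and 78029. Of the markers of pigment cells and the ciliary body 8 of 11 rose, with Col9a1 from 478 and 601 to 2582 and 2268, and 1 fell. Over all genes tested, 5.62% passed upward and 1.33% downward. The beta-globin gene Hbb-bs, a marker of red cells chosen after its values were seen, was at 158 and 174 in S100A4-/- and 104 and 55.8 in WT libraries. The genes Xist and Eif2s3y, which mark female and male cells and were chosen in the same way, were at 4685 and 3307 against 3426 and 3784 and at 354 and 375 against 207 and 187. The part of these cell types and of the sexes in the values of the 9 genes was not tested.

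Among the 27 other genes listed for class I presentation, 19 were tested and none passed the test with limma. Of these 19, 3 had an unadjusted p under 0.05 (limma), as did 17.7% of all genes tested. With DESeq2 and edgeR none was called at 2-fold either. Their median log2 fold change was -0.02. The chaperones of the endoplasmic reticulum were the most abundant, with Calr at 7151 and 7730 in S100A4-/- and 7312 and 7569 in WT libraries, and Canx and Pdia3 also differed by less than 1.1-fold. Nlrc5, the transactivator of class I genes, which was chosen after its values were seen, had a mean of 2477 ± 116 (SD, n = 2) without S100A4 and of 2372 ± 143 (SD, n = 2) with it. The smallest adjusted p-values belonged to Cd1d1, which presents lipids, H2-M3, which presents bacterial peptides, and Psmb8, an immunoproteasome subunit. Cd1d1 was at 36.0 and 45.6 in S100A4-/- and 59.5 and 82.1 in WT libraries (limma, adjusted p = 0.102) and passed, downward, under quantile normalization (limma adjusted p = 0.0406). H2-M3 had 20 and 21 reads against 3 and 9 (limma, adjusted p = 0.148). Psmb8 had 18 and 10 reads against 1 and 4 (limma, adjusted p = 0.168). These 2 were among 4 class I genes that reached the value needed for testing only in S100A4-/- libraries, and the call of H2-M3 without the second WT library (limma, log2 fold change 2.28, adjusted p = 0.0473) is subject to that filter too. Another 8 listed genes were not analysed here.

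Of the genes upstream of the interferon response, 36 were tested in 3 lists, besides Irf1 and Irf9, and none passed with limma. Of these 36, 5 had an unadjusted p under 0.05 (limma), as did 17.7% of all genes tested. None was called at 2-fold with DESeq2 or edgeR. Ifnar1, a chain of the type I interferon receptor, had values of 851 and 854 in S100A4-/- and 763 and 786 in WT libraries. Its groups did not overlap, at a log2 difference of 0.14 ± 0.08 (SE; limma, adjusted p = 0.378). The receptor-bound kinases Jak1 and Jak2 were at log2 fold changes of 0.17 and 0.34 (limma, adjusted p = 0.112 and 0.132), and the phosphatases Ptpn2 and Ptpn11 were at -0.30 and -0.02. Stat3, a transcription factor of many cytokines, overlapped between genotypes, at 1069 and 1052 in S100A4-/- and 1061 and 1109 in WT libraries. Of the other interferon regulatory factors, Irf2 at 738 and 780.4 against 767 and 789 and Irf8 at 130.2 and 159 against 146 and 105 overlapped between genotypes, and Irf5 had 12 and 9 reads against 2 and 0. The sensor of viral RNA Ifih1 had 18 and 10 reads against 9 and 3, and its adapter Mavs was at 933 and 951 in S100A4-/- and 962 and 1088 in WT libraries. Neither of these passed, and Irf5 and Ifih1 reached the value needed for testing only in S100A4-/- libraries. The interferon genes themselves, Ifnb1, Ifng and the others listed, were not analysed here.

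Among the interferon-stimulated genes the share that passed did not exceed that of all genes tested. Of 93 listed besides the members, 63 were analysed and 62 tested. The test was passed by 3 genes (4.84%), all upward, against 6.96% of all genes tested and 5.62% that passed upward. Of the 62 genes, 1 was also past 2-fold and higher, against 3.65% of all genes tested. The median log2 fold change was 0.14, with a range from -1.26 to 2.73, and 7 of the 62 genes reached the value needed for testing only in S100A4-/- and 2 only in WT libraries. Ifit3, which acts together with Ifit1, rose from 11.5 and 13.1 in WT to 48.8 and 47.6 in S100A4-/- libraries. The rise was 1.89 ± 0.40 (SE) on the log2 scale (limma, adjusted p = 0.0013). Ifit1 was at -0.16, and whether the genes differed in their response was not tested. Ifitm3, which blocks virus entry, rose from 87.7 and 91.97 to 126 and 171, and Ly6e, which acts on the same step, from 50.1 and 67.9 to 94.2 and 114. Their log2 fold changes were 0.70 and 0.82 (limma, adjusted p = 0.0175 and 0.0244). Neither of these passed with DESeq2 (adjusted p = 0.146 and 0.198), under quantile normalization (limma adjusted p = 0.115 and 0.133) or without the variance trend (limma adjusted p = 0.27 and 0.257). Without either S100A4-/- library none of these 3 genes passed, with Ifit3 at limma adjusted p-values of 0.142 and 0.117, and Ly6e also did not pass without the first WT library (limma adjusted p = 0.199).

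Ifit2, Isg15, Bst2 and Irf7, widely used markers of the response that were chosen after their values were seen, did not pass. Their log2 fold changes were 0.11, 0.98, 0.39 and 0.31. Mx1, Ifi44 and Isg20, chosen in the same way, did not pass either and had log2 fold changes of -0.59, -1.03 and -1.10. Of the 62 tested interferon-stimulated genes, the S100A4-/- libraries lay above WT without overlap in 21 and below in 9. Over all genes tested these shares were 23.7% and 23.2%. The 62 genes include the 7 that reached the value needed for testing only in S100A4-/- libraries and the 2 only in WT libraries. Their direction was largely set by that filter, and a lean of the list was not tested. Ifit2 was at 189 and 154 in S100A4-/- and 145 and 173 in WT libraries, and Isg15 at 13.7 and 20.3 against 17.8 and 3.28. Both overlapped between the groups, as did Irf7. Bst2 was at 84.8 and 58.8 against 57.4 and 50.4, without overlap (limma, adjusted p = 0.481). The most abundant genes of the list were Ifitm2, Lgals3bp and Znfx1, at log2 fold changes of -0.03, 0.15 and 0.17. Gbp9, a GTPase induced by interferon gamma, had 13 and 10 reads against 2 and 0 and did not pass (limma, adjusted p = 0.116).

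**Figure D4:**
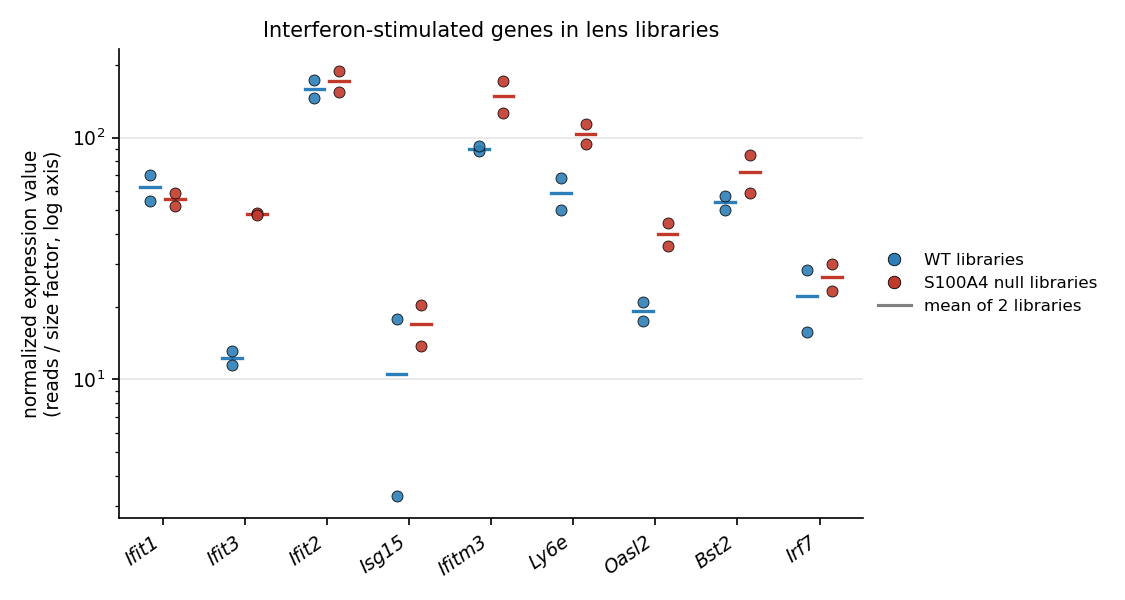
Normalized expression value (log axis) of Ifit1 and 8 further interferon-stimulated genes in each library, with WT in blue, S100A4-/- in red and bars at the means. Ifit3, Ifitm3 and Ly6e passed the test, with Ifit3 at 48.8 and 47.6 in S100A4-/- and 11.5 and 13.1 in WT libraries, while Ifit1 and Ifit2 overlap between the groups.

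**Figure D5:**
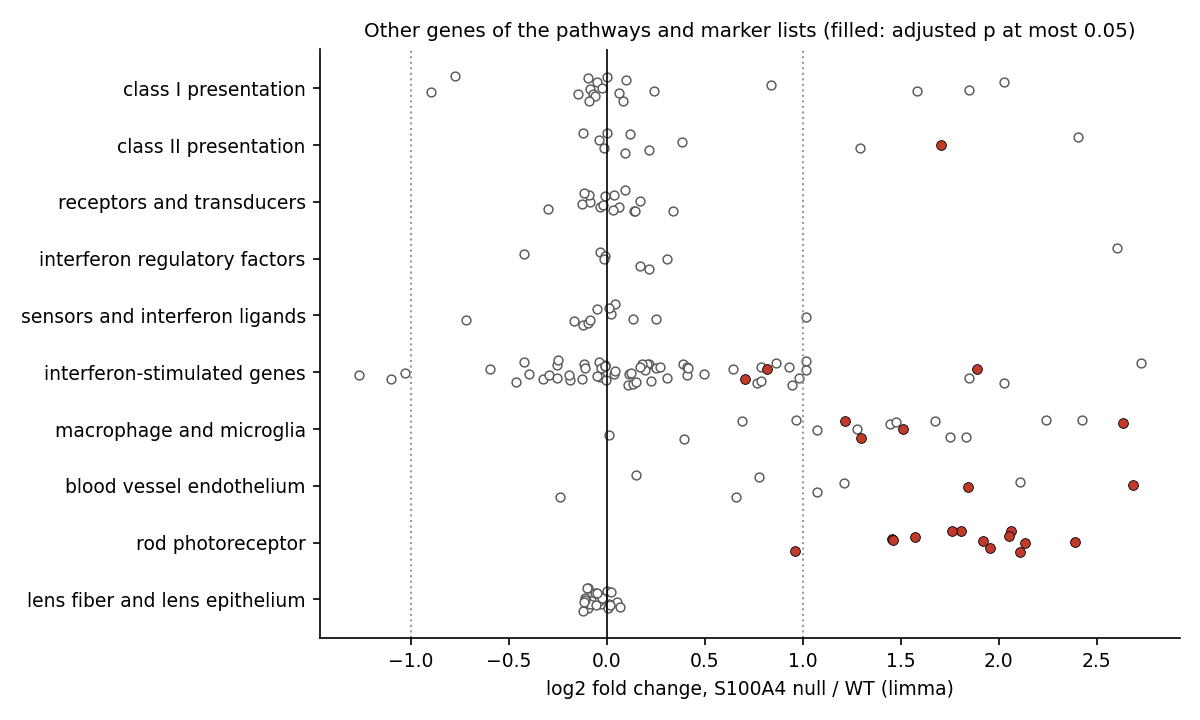
Log2 fold change of S100A4-/- over WT (limma) for the tested genes of each list besides the 9 genes, 1 point per gene, filled at an adjusted p of at most 0.05, with dotted lines at a 2-fold change. Filled points are absent for class I presentation, 3 for interferon-stimulated genes, 4 for macrophage and 13 for rod markers, and fitted changes of genes with few reads depend on the added 1.

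Cd74 had the smallest adjusted p of the 9 genes, and the genes with the most similar profile over the 4 libraries were sought among the 10133 genes whose mean value reached 100. Likeness was measured as the root mean square difference of log2(value + 1) after centering each gene. The nearest were Mir124a-1hg (0.0756), Shisa2 (0.0937), Slc6a13 (0.0994), Fbn2 (0.104) and Slc1a3 (0.117). Slc6a13 and Slc1a3 transport the neurotransmitters GABA and glutamate, and Fbn2 is a microfibril protein. These 5 genes had log2 fold changes from 1.51 (Slc1a3) to 1.84 (Fbn2) and were higher in the first S100A4-/- library than in the second and higher in the second WT library than in the first, as was Cd74. This shared order and size of change follow from how the 5 genes were chosen, and with 4 libraries such likeness is a description.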

How the data were processed

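Stranded mRNA libraries of 2 pools of S100A4-/- and 2 pools of WT lenses were sequenced. Before deposit, the authors used Trim Galore for trimming, mapped reads with STAR to GRCm38 (mm10 in the submitters' processing notes), counted reads of a single genomic locus with HTSeq and dropped genes under 10 reads in every library. The deposited signal values are these counts divided by a DESeq2 size factor per library, without division by gene length. The tools' versions are not given in the sources used here. Divided by the value of 1 read, 100% of the values of each library came out whole within 0.01 reads, so read counts were recovered, 60.1% to 61.7% of them on the 10 most abundant genes. A floor of 3 reads corresponds to values of 2.57 to 3.28 and covers counting error only.

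Symbols and GRCm38 coordinates came from GENCODE M21 for 14782 of 14924 genes, and promoter sequences from RefSeq on GRCm38. S100A4-/- and WT were compared with limma (trend) on log2(value + 1), with no covariates, over 14780 genes that reached a value of 10 in any library, and p-values were adjusted by Benjamini-Hochberg. Alternatives were pseudocounts of 0.5 and 5, no filter, a required mean of 50, TMM factors, equal totals, quantile normalization, no trend, the replicate number as a block, DESeq2 and edgeR on recovered reads, no fold threshold, and each library left out. Replicate libraries differed by more than sampling noise, with a mean chi-square per gene of 51.2 (median 1.35) in S100A4-/- and 16.9 (median 1.06) in WT. Besides the 9 members, genes were named as the 4 with the smallest adjusted p and the 3 most abundant of each of 6 pathway lists and the corresponding gene of each marker list; others were picked with their values known. The members and lists were chosen with earlier results of these data known, so no p-value over a list is given. Some genes are not reported here and stand in no list count. The fit was also run on simulated data, but the outcome is not reported here and no result rests on it. Fits used DESeq2 1.42.0, limma 3.58.1 and edgeR 4.0.16 in R 4.3.3, and tables and plots used pandas 2.3.3, matplotlib 3.10.9 and numpy 2.4.6 in Python 3.11.15. Every column had a sample, and 0 columns were left out.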

Additional observations from a re-analysis of the deposited data

How the results depend on the processing

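Over the alternatives 126 of 133 log2 fold changes of the 9 genes kept their direction and their side of the test. Irf1 turned to -0.10 under quantile normalization and to -0.031 without the first S100A4-/- library, and its values with a library left out ranged from -0.031 to 0.10. Ifit1 turned to 0.017 without the first WT library, with a range from -0.33 to 0.017. Cd74 lost its call without limma's variance trend and without either S100A4-/- library, and H2-K1 gained one without the first WT library. With a library left out, 0 to 1 members, 0 to 1 other class I genes, 0 to 2 other class II genes and 0 to 2 other interferon-stimulated genes were called higher, and 168 to 546 genes of the whole table were higher and 4 to 13 lower. Such fits leave a group with 1 library, which is assumed to vary like the other group.

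With a mean value of at least 50 required, 281 genes of the whole table were called higher and 6 lower, and 0 members, 0 class II and 0 interferon-stimulated genes, since Cd74, Ctss and Ifit3 were then not tested. Without the trend 174 genes were higher and 7 lower, with 0 members, 0 class II genes and 21 markers of other cell types against 32. Quantile normalization gave 23 genes lower and DESeq2 6, against 11. With no fold threshold 831 genes were higher and 197 lower, 3 interferon-stimulated genes were higher, and 1 marker of other cell types was lower. The cause of the other changes was not tested. With the replicate number as a block, 576 genes were higher and 15 lower and 1 member, Cd74, was called, as without it. Same-numbered libraries share only a number, and their deviations correlated at 0.0119 across genes. Members with fewer than 70 reads per library, Cd74, Tap1 and Ifit1, had the widest intervals.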
